A study of Drosophila melanogaster with 6 samples.

Results

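Cyclins, cyclin-dependent kinases (Cdk) and the proteins that restrain, activate or destroy them form the set of 38 genes described here in *Drosophila melanogaster* wing imaginal discs, the sheets of larval epithelium that give rise to the adult wings. The genes were taken by their FlyBase symbols, not by their level, from a table of read counts for 17478 genes. All 38 were found in the table, and all 38 were among the 9408 genes that passed the filter on low counts and were tested. They were grouped by role into 10 regulators of the passage from G1 into S phase, 12 regulators of the passage from G2 into mitosis, 9 mitotic kinases, checkpoint proteins and anaphase regulators, and 7 genes of a list of transcriptional and other cyclins that includes the kinase Cdk7. The list for the passage from G2 into mitosis also holds *fzr*, whose product acts in G1.

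The study asked which genes respond in discs that overexpress a short form of Cyclin G. *CycGΔP* discs (3 samples) carried the transgene *UAS-CycGΔP*, which encodes Cyclin G lacking its PEST domain, together with the *da-Gal4* driver, and control discs (3 samples) carried one copy of *da-Gal4* alone. The driver makes the yeast activator Gal4 throughout the larva, so both groups carried the source of Gal4. All discs came from female larvae of the third instar raised at 25°C without further treatment, and each sample pooled 150 discs. The methods state that the replicates of a group were dissected from independent crosses. The labels write the overexpressing genotype as *UAS-CycGΔP, da-Gal4/+*, and the methods also write it as *da-Gal4/UAS-CycGΔP*, so whether driver and transgene lay on the same chromosome cannot be told from these sources.

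Cyclins bind Cdk partners and switch them on. In flies, Cyclin D with Cdk4 and Cyclin E with Cdk2 drive entry into S phase, largely through E2F transcription factors that are held back by the retinoblastoma proteins. Cyclins A, B and B3 with Cdk1 drive mitosis once the phosphatase String has removed the inhibitory phosphates placed by Wee1 and Myt1, and the anaphase-promoting complex then destroys the mitotic cyclins. Many of these proteins are controlled by destruction or phosphorylation, which RNA levels do not show. Wing disc cells proliferate through larval life, and *stg* and *CycE* are known there as the limiting activators of the G2/M and G1/S steps. Cyclin G, Cyclin C, Cyclin H, Cyclin K and Cyclin T are known mostly for roles at chromatin or with RNA polymerase II.

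The deposited counts summed to between 21853360 and 40059450 per library, and depth was 1.28 times higher in control than in *CycGΔP* libraries on average. Levels are in CPM, the count of a gene scaled to library size, with TMM factors of 0.963 to 1.03 that correct for library composition, and ± is the SD over the 3 samples of a group. All 9 wing disc epithelium markers that could be matched, among them *vg*, *nub* and *ap*, were expressed, with summed levels of 2083 to 2223 CPM in *CycGΔP* discs and 1934 to 2238 CPM in control discs. Some markers of other cell types also moved. The 6 differentiated muscle genes summed to 28.9 to 40.9 CPM in *CycGΔP* discs and to 68.7 to 172.8 CPM in control discs, with 5 of 6 lower in *CycGΔP* discs without overlap and *Mhc*, a muscle myosin, past the threshold (edgeR log2 fold change -2.34, adjusted p = 0.0449). The 6 fat body genes summed to 4332 to 7057 CPM in *CycGΔP* discs, and to 17940, 1810 and 584 CPM in control replicates 1, 2 and 3, so that control replicate 1 stood apart. Of 6 male accessory gland genes, *Acp26Aa* (3.77, 4.80 and 4.43 CPM) and *Acp26Ab* (2.10, 3.09 and 3.28 CPM) were counted in all *CycGΔP* libraries and at 0 in all control libraries, and *Acp70A* was at 0 in all 6 libraries. *Acp36DE* overlapped, at 1.11, 12.3 and 2.86 CPM in *CycGΔP* discs and 2.88, 0.344 and 2.51 CPM in control discs. *Acp62F* and *Acp53Ea* did not exceed 0.19 CPM in any library, so the list did not move as a whole. Summed levels of the other lists overlapped between the groups for adult muscle precursors (6 genes), trachea (4 genes), haemocytes (6 genes) and neural cells (7 genes). For 6 germ line genes they were 9.99 to 14.5 CPM in *CycGΔP* discs against 6.26 to 7.99 CPM in control discs. Most of this sum was *AGO3*, higher in *CycGΔP* discs without overlap but not past the threshold (edgeR log2 fold change 0.9368, adjusted p = 0.06425). *vas* and *aub* overlapped between the groups, and *nos*, *bam* and *zpg* did not exceed 0.333 CPM in any library. The germ line list thus did not move as a whole either. The part of these cell types in the values below was not tested, and in bulk discs fewer cells of a type and less RNA per cell cannot be told apart.

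The transcripts of the cell cycle machinery were nearly level between *CycGΔP* and control discs. None of the 38 genes passed an adjusted p of 0.05 in edgeR's quasi-likelihood test with Benjamini-Hochberg adjustment over all tested genes, whereas 134 of the 9408 tested genes did (1.42%, with 0.691% higher and 0.733% lower). At an unadjusted p under 0.05, edgeR had 6 members (15.8%), against 14.7% of all tested genes. *CycG*, *CycK* and *E2f2* were the 3 higher in *CycGΔP* discs, beside 6.65% of all tested genes in that direction, and *CycB*, *CycB3* and *Cks85A* were the 3 lower, beside 8.07%. limma voom called no member, and DESeq2 called 1, *CycG*, where it called 5.79% of 9747 genes. Which members had an unadjusted p under 0.05 depended on single libraries, and only *CycG* and *Cks85A* kept it whichever library was left out. Without control replicate 2 these were the only 2 members, while the share of all tested genes was 11.1%. *CycB* and *CycB3* also dropped out without *CycGΔP* replicate 1, *CycGΔP* replicate 2 or control replicate 3, and *CycK* and *E2f2* without control replicate 1. In some of these fits *stg*, *trbl*, *Cdk7*, *Incenp* or *aurB* entered instead.

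The size of any difference was bounded closely. For 37 of the 38 genes (97.4%) the 95% interval of the fold between *CycGΔP* and control discs lay within 1.5-fold either way, as it did for 60.7% of all tested genes, and the exception was *CycG*. For 24 genes (63.2%) the interval lay within 1.25-fold, against 28.3% of all tested genes. These genes were well counted, with 238 counts (*Cks85A*) to 32121 counts (*CycG*) in a library, and varied little between replicates. Their median SD within groups was 0.08 on the log2 scale, against 0.14 over all tested genes, and their median standard error was 0.08, against 0.12. The least variable member was *Rca1*, an inhibitor of the anaphase-promoting complex, with an SD of 0.02, and the most variable were *CycT* and *stg*, both with an SD of 0.22.

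Log2 fold changes of *CycGΔP* over control discs were below 0 for 26 members (68.4%) and above 0 for 12. The median of the members was -0.05, and with single libraries left out it ran from -0.08 without control replicate 1 to -0.04 without *CycGΔP* replicate 2. Of all tested genes 47.7% were below 0, and their median was 0.01. The groups did not overlap for 12 members (31.6%), 4 higher and 8 lower in *CycGΔP* discs, against 22.0% of all tested genes (9.98% higher and 12.1% lower). By role the median was -0.03 for the G1/S regulators (-0.05 without control replicate 3), -0.11 for the G2/M regulators, -0.05 for the mitotic group and 0.00 for the transcriptional cyclins. The G2/M regulators had 9 of 12 members below 0 under TMM, RLE and upper-quartile scaling alike. Under upper-quartile scaling, 24 of the 38 members were below 0, with a median of -0.03, beside 44.1% of all tested genes, with a median of 0.03.

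**Figure D1:**
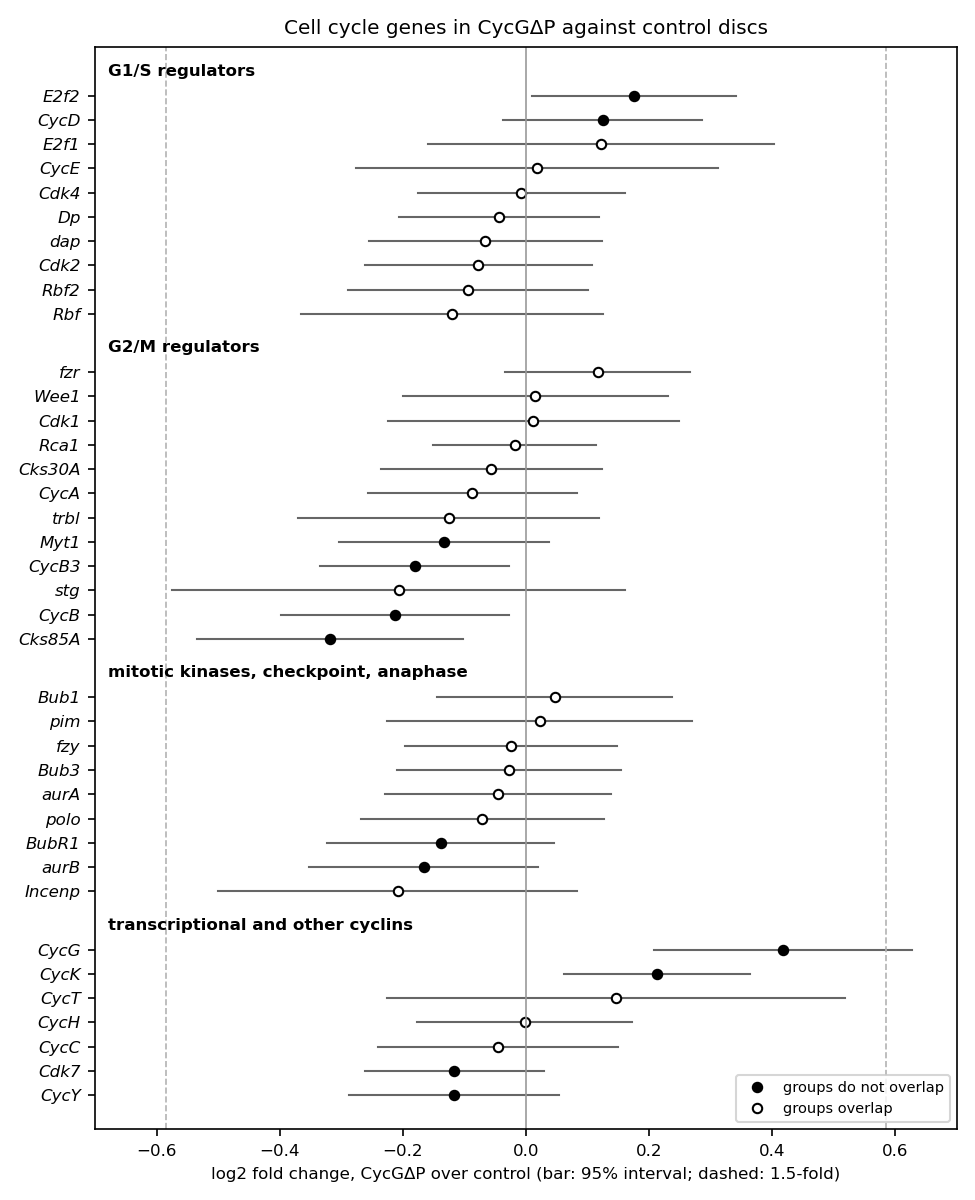
Log2 fold change of each of the 38 genes in CycGΔP discs over control discs, by role. Points are edgeR estimates and bars their 95% intervals, filled points mark genes whose 3 CycGΔP values lie all above or all below the 3 control values, and dashed lines mark 1.5-fold. Of all bars, the one of CycG crosses a dashed line, and 9 of the 12 G2/M points lie left of 0.

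*CycG* itself, the gene of the transgene, was examined first as a check of the labels. It encodes Cyclin G (FBgn0039858) and lies on the minus strand of 3R in dm6, from 31596642 to 31612664. Its level was 1022, 1012 and 900.2 CPM in the *CycGΔP* libraries, against 722.6, 788.3 and 686.1 CPM in the control libraries. All *CycGΔP* libraries were above all control libraries, the order that the labels imply, and the fold was 1.34 (95% interval 1.155 to 1.545). In edgeR the log2 fold change was 0.42 (standard error 0.09, adjusted p = 0.0909), which placed *CycG* at rank 249 by p among the tested genes and did not pass the threshold. Both DESeq2 fits put it past the threshold (adjusted p = 0.000502 without a prior on fold changes, 0.000482 with it), and over the 14 alternatives tried its adjusted p ran from 0.000482 to 0.273. The counts per gene add reads of the transgene to reads of the endogenous gene, and the share of each cannot be told apart from these counts. The paper measured the endogenous gene alone by RT-qPCR and reported it to be lower in *CycGΔP* discs.

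Per exon length, the 38 transcripts spanned a wide range that was the same in both groups. In counts relative to exon length and library total (RPKM), the most abundant in control discs were *polo*, a mitotic kinase, *Cdk1*, the mitotic cyclin-dependent kinase, and *Bub3*, a spindle checkpoint protein. Their levels were 152 ± 12.8 RPKM in *CycGΔP* discs and 159 ± 2.51 RPKM in control discs for *polo*, 151 ± 14.4 and 150 ± 11.7 RPKM for *Cdk1*, and 138 ± 9.20 and 141 ± 5.25 RPKM for *Bub3*. In *CycGΔP* discs these 3 lay within their summed SDs of one another, whereas in control discs *polo* was above *Bub3* by more than that. *CycG* was at 159 ± 11.0 RPKM in *CycGΔP* discs, the first in order but within the summed SDs of *polo* and of *Cdk1*. In control discs *CycG* was at 119 ± 8.44 RPKM, the fifth. At the low end stood *Bub1*, a checkpoint kinase, with 11.9 ± 0.460 RPKM in *CycGΔP* discs and 11.5 ± 0.95 RPKM in control discs, and *Cks85A*, a small Cdk-binding subunit, with 3.68 ± 0.0946 and 4.58 ± 0.290 RPKM. Of the exon bases of *Cks85A* 74.9% overlap genes on the opposite strand, so its count, and with it its last place, is uncertain.

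The order of the members by RPKM was nearly the same in both groups (Spearman's rho 0.99 over 38 genes that share the same libraries), and no gene moved by more than 5 places. The gene that moved by 5 was *E2f2*, at place 23 in *CycGΔP* discs and 28 in control discs. In control discs, 12 of the 37 steps between neighbours in the order were larger than the summed SDs of both genes, so most neighbours could not be ordered beyond their spread.

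**Figure D2:**
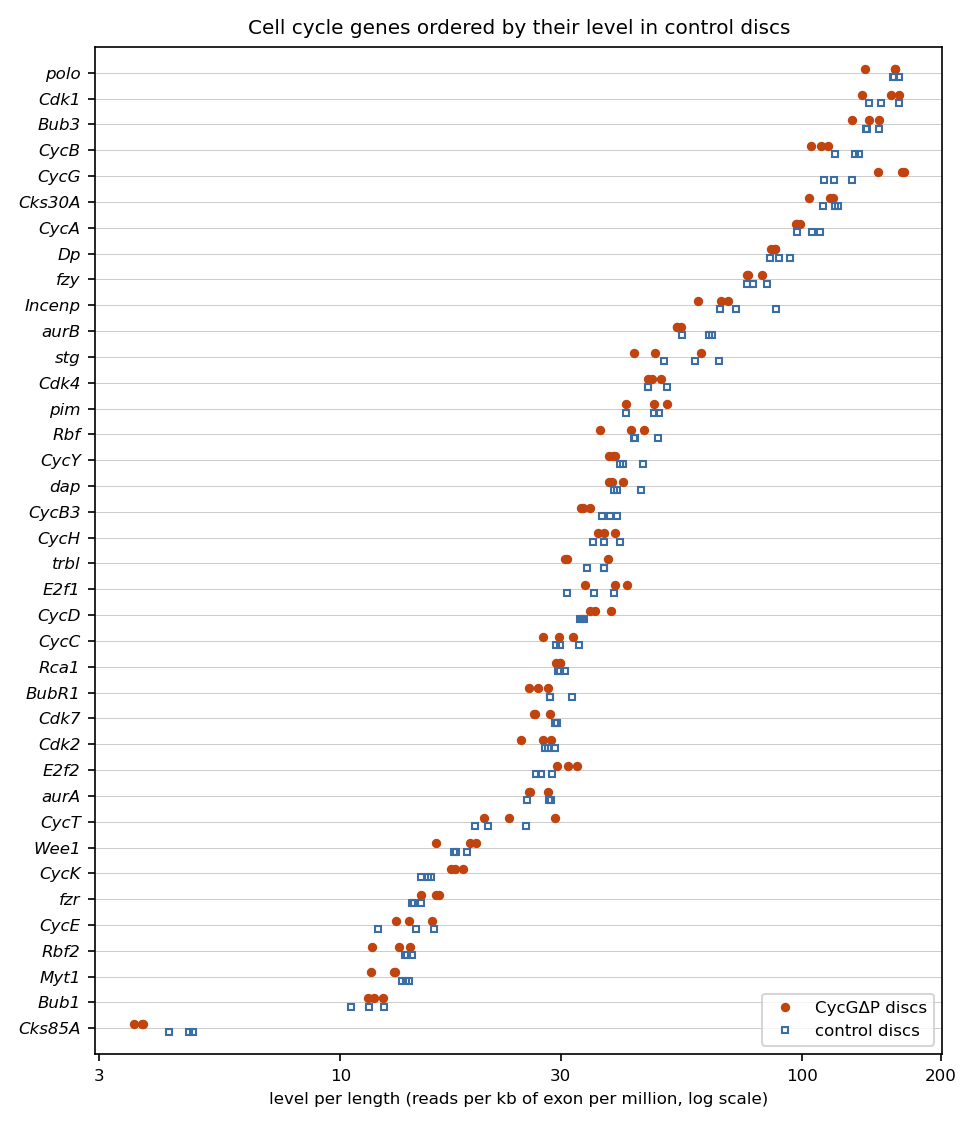
Level of each of the 38 genes in each library, as RPKM on a log scale, with genes ordered by their mean in control discs. Filled circles are CycGΔP discs and open squares control discs, 3 libraries each. CycG stands at 159 RPKM in CycGΔP discs and 119 RPKM in control discs, and Cks85A is the lowest gene in both groups.

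Among the regulators of G1/S, the E2F branch held the member with the lowest p. *E2f2*, the E2F protein of flies that mainly represses (2L from 21154293 to 21156749, minus strand), was at 62.2, 59.0 and 65.3 CPM in *CycGΔP* discs, against 54.6, 53.1 and 57.6 CPM in control discs. The groups did not overlap, and the fold was 1.13 (1.01 to 1.27), or 0.17 on the log2 scale (standard error 0.07, edgeR adjusted p = 0.312). Of its exon bases 19.9% overlap *Mpp6* on the opposite strand, whose own level was 9.03 ± 0.434 CPM in *CycGΔP* discs and 7.66 ± 0.707 CPM in control discs, also without overlap. *E2f1*, the activating E2F, was at 254, 269 and 218 CPM in *CycGΔP* discs and 228, 253 and 200.2 CPM in control discs. These ranges overlapped, and the fold of *E2f1* was 1.09 (0.895 to 1.32). *Dp*, the partner of both E2F proteins, was at 278 ± 3.14 CPM in *CycGΔP* discs and 286 ± 14.7 CPM in control discs.

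No cyclin or kinase of G1 passed the test. *CycD*, the cyclin of Cdk4 that promotes growth and G1 progression, was at 85.4, 87.5 and 94.7 CPM in *CycGΔP* discs, against 82.5, 82.0 and 81.0 CPM in control discs. Its groups did not overlap, while its fold of 1.09 (0.975 to 1.22) did not pass the test (edgeR adjusted p = 0.447). *Cdk4* was at 117 ± 3.84 CPM in *CycGΔP* discs and 118 ± 6.42 CPM in control discs. *CycE*, the cyclin that triggers S phase, was at 79.7, 71.0 and 66.8 CPM in *CycGΔP* discs and at 73.5, 80.4 and 60.8 CPM in control discs, a fold of 1.01 (0.826 to 1.24). Its kinase *Cdk2* was at 61.8 ± 4.74 and 65.2 ± 1.75 CPM, and 43.9% of the exon bases of *Cdk2* overlap a gene on the opposite strand that was at 0.101 ± 0.0476 CPM in *CycGΔP* discs and 0.137 ± 0.0290 CPM in control discs (*CG17267*).

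Of the genes that hold back G1/S, *dap*, *Rbf* and *Rbf2*, unlike *E2f2*, had folds below 1, and none passed the test. *dap*, the Cdk inhibitor that blocks Cyclin E and Cdk2, was at 99.5 ± 3.80 CPM in *CycGΔP* discs and 104 ± 7.86 CPM in control discs, a fold of 0.955 (0.838 to 1.09). *Rbf*, the main retinoblastoma protein of flies, was at 165, 132 and 155 CPM in *CycGΔP* discs and 158, 176 and 156 CPM in control discs, a fold of 0.920 (0.776 to 1.09). *Rbf2*, the second retinoblastoma protein, had a fold of 0.937 (0.819 to 1.07). *CycGΔP* replicate 2 had the lowest level of the 6 libraries for all 3 of these genes, at 31.6 CPM for *Rbf2* and 96.8 CPM for *dap*.

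The G2/M regulators held the lowest fold of the set, that of *Cks85A*, and the next lowest, that of *CycB*. *CycB*, the mitotic cyclin that activates Cdk1 (2R from 22803521 to 22806948, minus strand), was at 336, 319 and 347 CPM in *CycGΔP* discs, against 359, 397 and 405 CPM in control discs. The groups did not overlap, and the fold was 0.863 (0.759 to 0.981), or -0.21 on the log2 scale (standard error 0.08, edgeR adjusted p = 0.266). *CycB3*, which acts with Cdk1 at anaphase (3R from 24867934 to 24870816, minus strand), was at 96.7, 96.0 and 99.97 CPM in *CycGΔP* discs, against 106.4, 110.7 and 114.7 CPM in control discs. Here too the groups did not overlap, with a fold of 0.882 (0.793 to 0.981) or -0.18 on the log2 scale (standard error 0.06, edgeR adjusted p = 0.252). *CycA*, which is needed for entry into mitosis in flies, was at 284, 284 and 290 CPM in *CycGΔP* discs and 285, 320 and 307 CPM in control discs, and its fold of 0.941 had an interval of 0.837 to 1.06.

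*Cks85A*, one of a pair of small Cdk-binding subunits (3R from 8712906 to 8718456, minus strand), came below *CycB*. It was at 11.2, 11.3 and 10.8 CPM in *CycGΔP* discs, against 14.5, 12.9 and 14.2 CPM in control discs. The groups did not overlap, and the fold was 0.802 (0.690 to 0.931), or -0.32 on the log2 scale (standard error 0.09, edgeR adjusted p = 0.173). Of its exon bases 74.9% overlap genes on the opposite strand, *CG8112*, which was at 0 in all 6 libraries, and *TMEM216*, at 8.28 ± 1.33 CPM in *CycGΔP* discs and 8.17 ± 0.955 CPM in control discs. *Cks30A*, the other subunit of this kind, was at 128 ± 8.06 CPM in *CycGΔP* discs and 133 ± 4.98 CPM in control discs, a fold of 0.962 (0.849 to 1.09). Whether *Cks85A* and *Cks30A* differ in their fold was not tested.

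**Figure D3:**
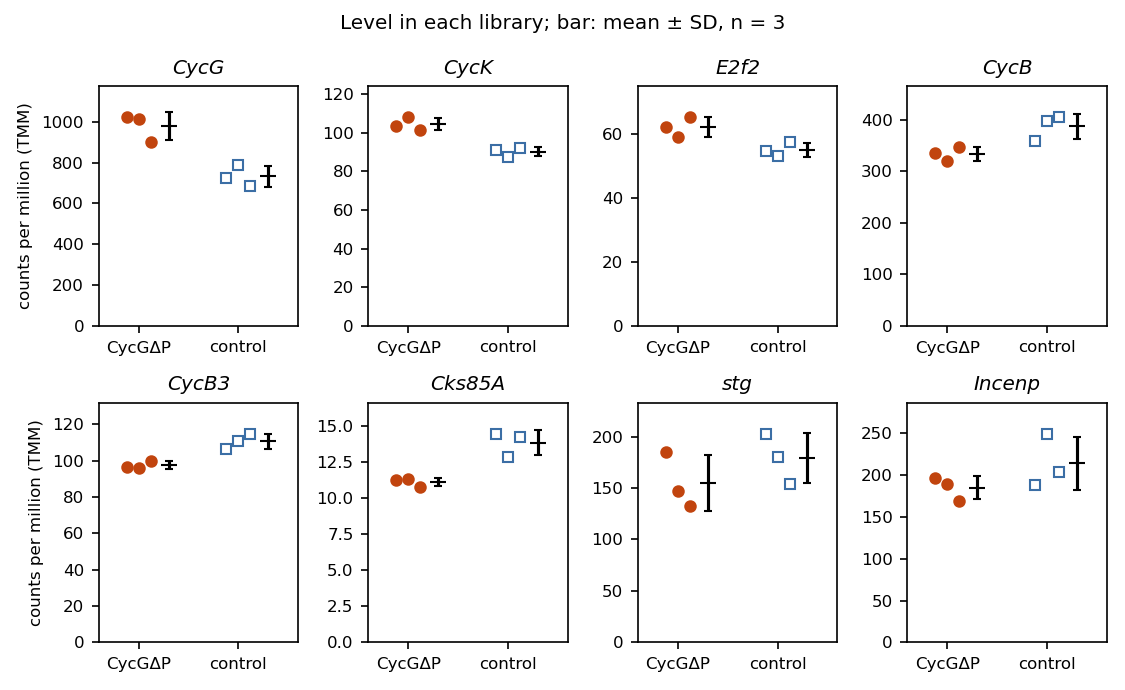
Level of 8 genes in each library in CPM (TMM-scaled), with axes that start at 0. Filled circles are CycGΔP discs, open squares control discs, and bars the mean ± SD of 3 libraries. The groups do not overlap for CycG, CycK, E2f2, CycB, CycB3 and Cks85A, and overlap for stg and Incenp.

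*Cdk1* and its inhibitory switch gave no difference past the test. *Cdk1* was at 146, 176 and 169 CPM in *CycGΔP* discs and 160, 151 and 176 CPM in control discs, a fold of 1.01 (0.856 to 1.19). *stg*, which encodes the String phosphatase that activates Cdk1, was at 185, 147 and 133 CPM in *CycGΔP* discs and 203, 180 and 154 CPM in control discs. The groups overlapped, and with a fold of 0.866 the interval of *stg*, from 0.671 to 1.12, was among the widest of the set. *Wee1*, a kinase that inhibits Cdk1 in the nucleus, was at 48.4 ± 5.08 CPM in *CycGΔP* discs and 48.0 ± 1.62 CPM in control discs. *Myt1*, its membrane-bound counterpart, was at 25.4, 22.6 and 25.4 CPM in *CycGΔP* discs, against 26.4, 26.9 and 27.3 CPM in control discs. The groups of *Myt1* did not overlap, and its fold of 0.912 (0.810 to 1.03) did not pass the test (edgeR adjusted p = 0.438). *trbl*, whose product Tribbles promotes destruction of String, was at 90.0, 73.6 and 72.8 CPM in *CycGΔP* discs and 88.6, 88.4 and 81.1 CPM in control discs.

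The anaphase-promoting complex is directed to its targets by Fizzy during mitosis and by Fizzy-related in G1. *fzr*, the G1 activator, was at 45.6, 44.9 and 41.6 CPM in *CycGΔP* discs and 41.7, 40.3 and 39.9 CPM in control discs, so only the lowest *CycGΔP* library lay among the control values, and the fold was 1.08 (0.976 to 1.203). *fzy*, the mitotic activator, was at 156 ± 6.73 CPM in *CycGΔP* discs and 159 ± 8.23 CPM in control discs. *Rca1*, which protects the mitotic cyclins from Fizzy-related, was at 46.3, 46.3 and 45.4 CPM in *CycGΔP* discs and 45.9, 47.7 and 46.3 CPM in control discs, and its fold of 0.987 had an interval of 0.90 to 1.08. *pim*, the fly securin that holds back separation of sister chromatids, was at 40.6, 50.0 and 46.7 CPM in *CycGΔP* discs and 46.7, 40.6 and 47.9 CPM in control discs, a fold of 1.02 (0.855 to 1.21).

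Among the mitotic kinases, the chromosomal passenger complex gave the lowest folds. *Incenp*, the scaffold of that complex (2R from 7278467 to 7281795, plus strand), was at 196, 190 and 169 CPM in *CycGΔP* discs and 188, 249 and 204 CPM in control discs. Its groups overlapped, and control replicate 2 was the highest of the 6 libraries. The log2 fold change of *Incenp* was -0.21 (standard error 0.12, edgeR adjusted p = 0.47), and without control replicate 2 it was -0.10. *aurB*, the Aurora B kinase bound by Incenp, was at 64.9, 63.4 and 63.4 CPM in *CycGΔP* discs, against 65.0, 75.4 and 74.6 CPM in control discs. These values did not overlap, though control replicate 1 was close to the *CycGΔP* libraries, and the fold was 0.891 (0.783 to 1.01). *polo*, which acts at several steps of mitosis, was at 474, 408 and 474 CPM in *CycGΔP* discs and 472, 484 and 470 CPM in control discs, and *aurA*, the centrosomal Aurora kinase, was at 41.9 ± 2.31 and 43.2 ± 2.83 CPM.

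The spindle checkpoint proteins delay anaphase until all chromosomes are attached. *BubR1*, which binds and blocks Fizzy, was at 130, 119 and 124 CPM in *CycGΔP* discs, against 132, 147 and 131 CPM in control discs, a fold of 0.908 (0.799 to 1.03). The groups of *BubR1* did not overlap and it did not pass the test (edgeR adjusted p = 0.455). *Bub1* was at 50.9 ± 1.97 CPM in *CycGΔP* discs and 49.3 ± 4.06 CPM in control discs, and *Bub3*, which brings both to the kinetochore, at 188 ± 12.5 and 192 ± 7.15 CPM. The 9 genes of the mitotic group had a mean level, relative to the control mean, of -0.08, -0.06 and -0.06 on the log2 scale in the *CycGΔP* libraries and of -0.07, 0.04 and 0.03 in control replicates 1, 2 and 3. Control replicate 1 thus lay with the *CycGΔP* libraries, and without it the median log2 fold change of the mitotic group was -0.0956. The 12 G2/M genes were at -0.06, -0.12 and -0.11 in *CycGΔP* discs and between -0.01 and 0.01 in control discs, without overlap. Over all tested genes the same mean was 0.03, 0.07 and 0.03 in the *CycGΔP* libraries. It was 0.08, -0.03 and -0.05 in control replicates 1, 2 and 3. Whether the lists differ from this background in each library was not tested.

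The highest folds of the set, those of *CycG* and *CycK*, fell on the list of transcriptional and other cyclins. The counts of *CycG* include the transgene, and 4 of the 7 members of this list were below 0 on the log2 scale. *CycK*, the cyclin of the kinase Cdk12 that acts on elongating RNA polymerase II (2L from 22124285 to 22130142, minus strand), was at 104, 108 and 102 CPM in *CycGΔP* discs, against 90.9, 87.6 and 91.9 CPM in control discs. The groups did not overlap, and the fold was 1.16 (1.04 to 1.29), or 0.21 on the log2 scale (standard error 0.06, edgeR adjusted p = 0.188). Over the 14 alternatives the adjusted p of *CycK* ran from 0.0501 to 0.46. Of its exon bases 31.3% overlap *CG3651* on the opposite strand, which was at 61.1 ± 5.57 CPM in *CycGΔP* discs and 59.8 ± 3.34 CPM in control discs. *CycT*, the cyclin of the elongation factor P-TEFb, was at 147, 185 and 130 CPM in *CycGΔP* discs and 133, 160 and 124 CPM in control discs. Its groups overlapped, and its interval, from 0.855 to 1.43 around a fold of 1.11, was wide.

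*CycH* and *Cdk7* form the kinase of the general transcription factor TFIIH, which also activates other Cdks. *CycH* was at 40.02 ± 1.68 CPM in *CycGΔP* discs and 40.1 ± 2.66 CPM in control discs. *Cdk7* was at 38.2, 41.3 and 38.01 CPM in *CycGΔP* discs, against 42.2, 42.6 and 42.5 CPM in control discs, a fold of 0.922 (0.834 to 1.02) without overlap. *CycC*, the cyclin of the Mediator kinase Cdk8, was at 33.9 ± 2.56 CPM in *CycGΔP* discs and 35.1 ± 2.15 CPM in control discs. *CycY*, a membrane-associated cyclin, was at 101, 99.7 and 97.4 CPM in *CycGΔP* discs, against 104, 116 and 103 CPM in control discs, a fold of 0.922 (0.819 to 1.04), also without overlap. Neither *Cdk7* (edgeR adjusted p = 0.43) nor *CycY* (edgeR adjusted p = 0.491) passed the test.

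Ratios of partner or opposing transcripts within a library do not depend on how the libraries are scaled, and 6 such ratios were compared on the log2 scale by exact permutation, two-sided. The smallest p that 3 against 3 libraries allow is 0.1. *CycB* over *CycA* reached that p, with 0.24, 0.17 and 0.26 in *CycGΔP* discs, against 0.34, 0.31 and 0.40 in control discs (difference -0.13, exact permutation p = 0.1, 0.6 after Benjamini-Hochberg adjustment over the 6 ratios). The *CycB* to *CycA* ratio was thus lower in 3 of 3 *CycGΔP* libraries, and the adjusted value did not pass. *stg* over the sum of *Wee1* and *Myt1* was at 1.26, 1.17 and 0.80 in *CycGΔP* discs and at 1.47, 1.28 and 1.00 in control discs (difference -0.17, exact permutation p = 0.4). With single libraries left out this difference ran from -0.30 without control replicate 3 to -0.03 without *CycGΔP* replicate 3, and it was -0.06 without control replicate 1. The groups overlapped for this balance of Cdk1 activator and inhibitors, as they did for the 4 ratios that follow.

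*fzy* over *fzr* was 1.83 ± 0.13 in *CycGΔP* discs and 1.97 ± 0.10 in control discs (exact permutation p = 0.3, n = 3 each). *CycE* over its inhibitor *dap* was -0.46 ± 0.09 in *CycGΔP* discs and -0.55 ± 0.20 in control discs (exact permutation p = 0.5). For *CycD* over *CycE* the difference was 0.10 (exact permutation p = 0.6), and for *E2f1* over *E2f2* it was -0.05 (exact permutation p = 0.7). The directions of these last ratios, *CycD* over *CycE* and *E2f1* over *E2f2*, turned when single libraries were left out: without *CycGΔP* replicate 3 they were -0.0025 and 0.0709, and without control replicate 2 *E2f1* over *E2f2* was 0.06.

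**Figure D4:**
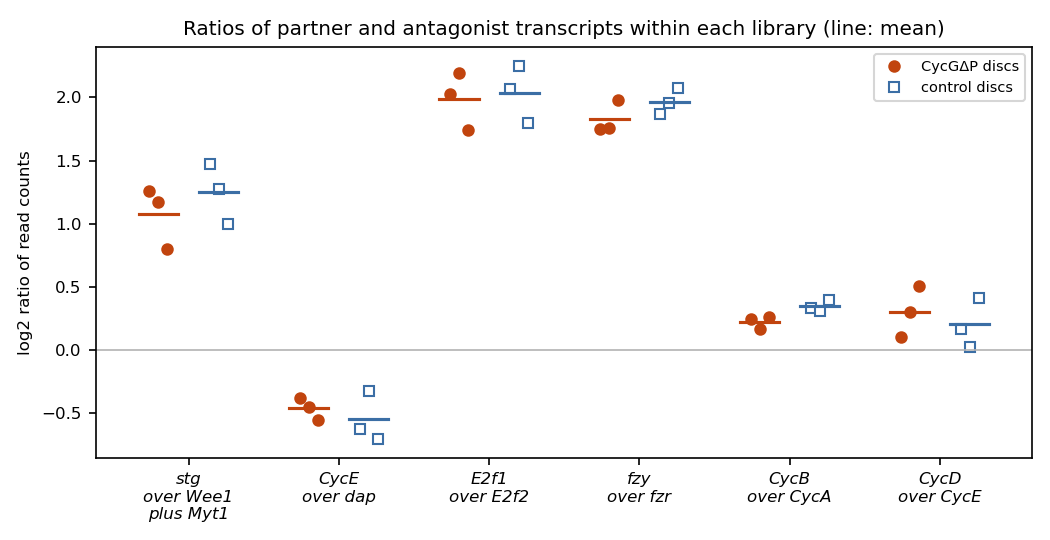
Log2 ratio of read counts of partner or opposing genes within each library. Filled circles are CycGΔP discs and open squares control discs (3 each), and lines are means. For CycB over CycA the CycGΔP libraries lie between 0.17 and 0.26 and the control libraries between 0.31 and 0.40, and the groups overlap for the other 5 ratios.

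The wider cell cycle apparatus was read from 6 further lists: other cyclins and Cdks, the APC/C and SCF ubiquitin ligases, the Myb-MuvB/dREAM complex that represses or activates cell cycle genes, replication factors known as E2F targets, kinetochore and checkpoint genes, and spindle, centrosome and cytokinesis genes. Of 78 genes listed, 75 were matched and 73 tested. edgeR called 0 of the 73 at an adjusted p of 0.05, and 9 had an unadjusted p under 0.05, with 1 higher and 8 lower in *CycGΔP* discs, beside 14.7% of all tested genes (6.65% higher and 8.07% lower). limma voom called none. DESeq2 called 2, where it called 5.79% of 9747 genes in all. These were *Roc1a*, the RING subunit of SCF ligases, and *mei-38*, a spindle microtubule gene, which are named here after their values were seen. *Roc1a* was at 136, 151 and 153 CPM in *CycGΔP* discs, against 187, 174 and 199 CPM in control discs (DESeq2 adjusted p = 0.00169, edgeR adjusted p = 0.121). *mei-38* was at 23.6, 17.4 and 19.7 CPM in *CycGΔP* discs, against 27.2, 32.5 and 27.3 CPM in control discs (DESeq2 adjusted p = 0.0355, edgeR adjusted p = 0.137). Both genes were lower in *CycGΔP* discs without overlap.

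Taken by list, the median log2 fold change was -0.06 for other cyclins and Cdks (10 genes tested), -0.07 for the ubiquitin ligases (15), 0.00 for the Myb-MuvB/dREAM complex (6), -0.05 for the replication factors (11), -0.10 for kinetochore and checkpoint genes (12) and -0.04 for spindle, centrosome and cytokinesis genes (19), against 0.01 over all tested genes. Over the 73 genes, 51 were below 0 and the median was -0.05, as over the 38 members. The mean level of the 73 genes relative to the control mean was -0.06, -0.06 and -0.06 on the log2 scale in the *CycGΔP* libraries, and -0.06, 0.05 and 0.01 in control replicates 1, 2 and 3. Control replicate 1 therefore sat at the level of the *CycGΔP* libraries in these lists, as it did for the 9 mitotic genes. The mean over all tested genes was 0.08 in that library. Without control replicate 1, 58 of the 73 genes were below 0, with a median of -0.11, beside 49.6% of all tested genes. With any other single library left out, 45 to 53 of the 73 genes were below 0, with medians from -0.0662 to -0.0335.

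**Figure D5:**
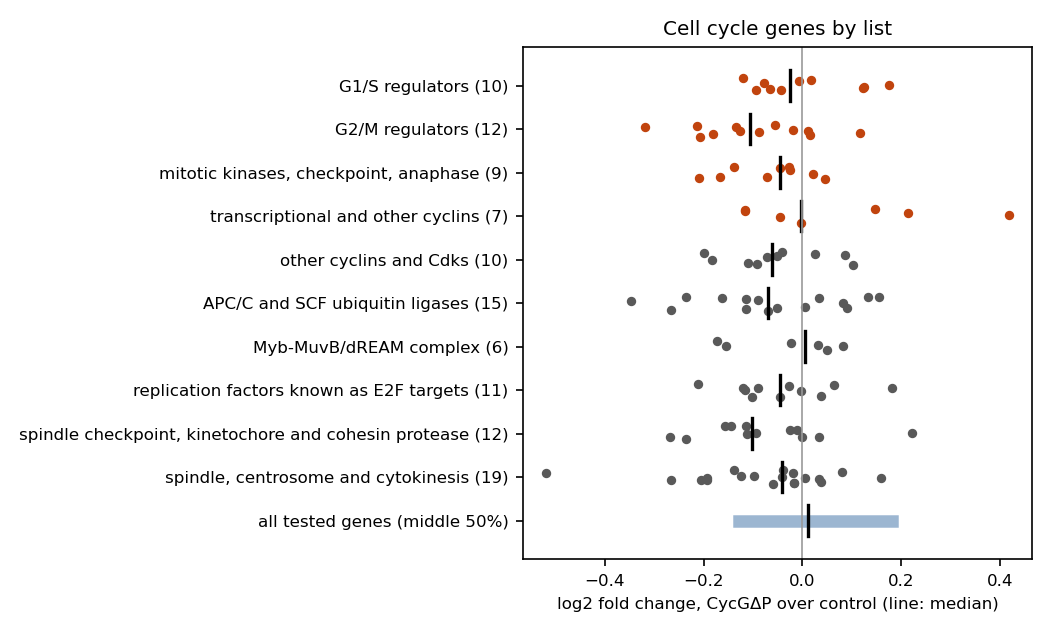
Log2 fold change of CycGΔP over control discs for the genes of the 4 lists of the set (upper rows, coloured) and the 6 further cell cycle lists (grey), with the number of tested genes in brackets and the median as a line. The bar in the lowest row holds the middle 50% of all tested genes, from -0.13 to 0.18. The median of the G2/M regulators is -0.11 and that of all tested genes 0.01.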

How the data were processed

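Polyadenylated RNA was measured in 3 *CycGΔP* and 3 control samples of discs. According to the study's methods and processing notes, the authors aligned single reads of 50 bp from stranded poly(A) libraries to dm6 with TopHat2 2.0.10, counted uniquely placed reads on Ensembl gene models and deposited these counts per gene as whole numbers, not normalized. The strand setting of the counting is not given in the sources used here, so the counts of the 14 members that overlap a gene on the opposite strand are uncertain. A second deposited table, the counts divided by 1 size factor per library, was not used. Groups came from the labels. Gene identifiers were matched to the Ensembl annotation of dm6, with 17219 of 17478 matched. RPKM used exon lengths of that annotation, which may be newer than the one counted on.

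Genotypes were compared with the quasi-likelihood test of edgeR 4.0.16 under R 4.3.3 (TMM, expression filter by group, robust fit of the group alone, Benjamini-Hochberg adjustment at 0.05). The biological coefficient of variation was 30.0%. Intervals are at 95% from the same fit. Replicates differed by more than sampling noise (chi-square per gene 43.1 to 157), so each library counted as 1 replicate. Ratios were compared with exact two-sided permutation tests in scipy 1.17.1, with SD and n = 3 each. The fit was tested on simulated data with changes larger than those of the members, so that run does not show how it behaves at folds of their size. All 38 members are named, and values in full are given for *CycG*, for members with an unadjusted p under 0.05 and for the member with the largest absolute fold in each list. The members and lists were chosen with earlier results of these data known. Of 116 list genes 113 were matched, and of 59 markers 56 were matched. Alternatives were RLE and upper-quartile scaling, DESeq2 1.42.0 with and without a prior, limma 3.58.1 voom, at least 1 count in all libraries together or 10 in every library, the replicate number as a block, each library left out, and for the ratios a pseudocount of 1 count.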

Additional observations from a re-analysis of the deposited data

How the results depend on the processing

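No member reversed its direction among the 7 genes given in full, over 14 alternatives each, and only *CycG* crossed the threshold, with log2 fold changes of 0.40 and 0.38 under DESeq2 without and with a prior. Under both DESeq2 fits 1 member was called, and 0 under the other 12 alternatives. Deregulated genes numbered 564 and 536 under DESeq2 without and with a prior and 11 to 78 with single libraries left out. Members with an unadjusted p under 0.05 numbered 2 to 6 with single libraries left out, the 2 without control replicate 2, beside 10.4 to 17.5% of all tested genes in the same fits. The median log2 fold change with single libraries left out ranged from -0.0536 to -0.0185 for the G1/S regulators, from -0.127 to -0.082 for the G2/M regulators, from -0.0956 to -0.0178 for the mitotic group and from -0.0659 to 0.0462 for the transcriptional cyclins, whose direction is thus not settled. The difference in ratio ranged from -0.1709 to 0.0709 for *E2f1* over *E2f2* (0.0552 without control replicate 2), from -0.0025 to 0.2047 for *CycD* over *CycE*, from 0.0115 to 0.2026 for *CycE* over *dap*, from -0.2958 to -0.0343 for *stg* over *Wee1* plus *Myt1*, from -0.2151 to -0.0865 for *fzy* over *fzr* and from -0.1445 to -0.0975 for *CycB* over *CycA*. The causes were not tested.

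The replicate numbers are shared between groups, but same-numbered libraries did not deviate together (correlations -0.10, -0.13 and -0.12). Pairs of unlike number had correlations from -0.13 to 0.21. Deviations from a mean of 3 libraries depend on one another, so these values cannot tell whether same-numbered libraries were handled together. With the replicate block, edgeR called 2 genes in all and 0 members, 7 members had an unadjusted p under 0.05 beside 14.8% of all tested genes, and the adjusted p of *CycG* was 0.169. Leaving out 1 of 3 libraries lowers the power of each fit.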
